A study of Homo sapiens with 6 samples.

Results

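The replication-dependent histone genes encode the linker histone H1 and the core histones H2A, H2B, H3 and H4 that package newly copied DNA. They were followed on 2 laminin coatings in the established human embryonic stem cell line H1. The cell line and the linker histone share a name, and H1 below means the histone. A gene was a member if its current symbol was H1-1 to H1-5 or a numbered H2AC, H2BC, H3C or H4C symbol, it was not a pseudogene, and its Ensembl ID was in the count table. This gave 68 of the 60499 genes in the table: 5 H1, 17 H2A, 18 H2B, 13 H3 and 15 H4 genes. The rule used no measured value.

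All wells held the same cell line in NutriStem, a medium for human pluripotent stem cells, and the labels name no other treatment or genetic change. One group of 3 wells was coated with recombinant laminin-521 (LN-521), and the other group of 3 with laminin-521 and laminin-221 together (LN-521+LN-221). Cells grew for 4 days, to confluence by the series' description, and total RNA was sequenced from each well with read pairs of 150 bp. A single line was used, and the labels place replicates in separate wells, so p-values measure the spread between wells. Total RNA libraries suit these genes, because a library primed on poly(A) tails captures little RNA without one.

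Replication-dependent histone genes are transcribed mainly in S phase, when DNA is copied, and their mRNAs normally end in a conserved stem-loop in place of a poly(A) tail. The stem-loop binding protein SLBP holds that loop, the U7 small nuclear RNP directs the cut behind it, and NPAT activates the genes' transcription in nuclear bodies near the gene clusters. Human embryonic stem cells divide quickly and have a short G1 phase, so a large share of them is in S phase. In RNA from whole wells, fewer cells in S phase and less histone RNA per cell cannot be told apart.

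The genes lie in a few clusters, given here on RefSeq GRCh38.p14. The largest, with 33 members, spans chr6:25726063-26285534. Another group of 5 members lies at chr6:27132316-27147562 and one of 16 at chr6:27807479-27893891. On chromosome 1, 11 members lie at chr1:149782689-149887965 and 2 at chr1:228457364-228458558. H4C16 stands alone at chr12:14770720-14771131. The genes are short, which matters for how reads were assigned: the longest annotated transcript per member had a median of 512 bases in GENCODE release 29.

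The stem-loops are shown because they are the feature that sets these mRNAs apart. A search of GENCODE 29 transcripts on the gene strand for GG, 2 free bases, CTTTT, 1 free base, AG, 2 free bases and CC found this pattern in 30 members and in 59 of 19645 coding genes overall (0.3%). Of the members, 32 have a longest model made of the coding sequence alone, and none of these held the motif. Of the 36 with longer models, 30 held it. Longer models can extend at either end, and how many run past the end of the coding sequence was not counted. The 30 members carried 5 forms, written as DNA with the 4-base loop in capitals:
Form in 17 members, among them H2AC6, H2AC8, H2BC8, H2BC9 and H3C14: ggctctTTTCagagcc
Form in 5 members, H4C2, H4C5, H4C8, H4C11 and H4C16: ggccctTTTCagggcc
Form in 4 members, H2BC4, H2BC5, H2BC7 and H3C8: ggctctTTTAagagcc
Form in 3 members, H4C9, H4C14 and H4C15: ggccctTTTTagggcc
Form in H2AC11: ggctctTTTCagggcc

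These forms differed in the last base of the loop and at 1 base pair of the stem. The search pattern fixed most other positions, so differences there could not appear, and members with such forms would have been missed. H4 members carried forms whose stem begins ggccct, and H2A, H2B and H3 members carried forms whose stem begins ggctct.

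Promoters are shown because core histone families differ in the letters before their start sites, and because H2A and H2B genes often start back to back from a shared stretch. RefSeq held a promoter for 63 members. In the 250 bases before the start, CCAAT on either strand was present in 53 of 63 members (84.1%), against 33.0% of all 27305 promoters. All 5 H1, 16 H2A, 18 H2B and 11 H3 promoters held it, but 3 of the 13 H4 promoters did. The octamer ATTTGCAT on either strand, a site read by POU-domain factors, was in 26 members (41.3%, against 1.7% of all promoters): 14 of 18 H2B, 11 of 16 H2A, 1 of 11 H3 and no H1 or H4 promoter. The H3 promoter is that of H3C4, whose first listed start in RefSeq is also the start of H2AC7, so the same stretch was counted under both families. Opposed H2A and H2B genes start 194 to 248 bases apart, within the 250 bases searched. A match between their starts was therefore counted for both partners, and these shares are not of separate promoters. TATAAA on the gene strand was in 37 members (58.7%, against 7.2%). None of these motifs contains another, and a match describes letters in the window, not a bound site.

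Printed below are the 150 bases before the start, with CCAAT, ATTTGCAT and TATAAA, on either strand for the first pair, in capitals. The opposed genes H2AC8 and H2BC8 start 233 bases apart, so that their windows overlap. H1-5, H3C2 and H4C11 are abundant members of their families, and H4C16 had the smallest p-value between coatings.
H2AC8, chr6:26216771-26216920, plus strand: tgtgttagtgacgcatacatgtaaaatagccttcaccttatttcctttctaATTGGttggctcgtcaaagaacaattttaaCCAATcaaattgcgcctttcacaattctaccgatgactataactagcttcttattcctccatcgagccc
H2BC8, chr6:26216689-26216838, minus strand: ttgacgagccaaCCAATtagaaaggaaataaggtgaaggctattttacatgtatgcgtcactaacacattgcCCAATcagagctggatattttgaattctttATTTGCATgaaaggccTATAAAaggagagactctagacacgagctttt
H1-5, chr6:27867589-27867738, minus strand: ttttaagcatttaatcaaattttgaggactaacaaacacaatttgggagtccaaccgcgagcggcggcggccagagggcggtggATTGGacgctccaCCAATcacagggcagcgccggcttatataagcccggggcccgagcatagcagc
H3C2, chr6:26032100-26032249, minus strand: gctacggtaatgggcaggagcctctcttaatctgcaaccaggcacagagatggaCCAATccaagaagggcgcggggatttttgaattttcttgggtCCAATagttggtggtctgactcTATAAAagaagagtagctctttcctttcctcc
H4C11, chr6:27823942-27824091, plus strand: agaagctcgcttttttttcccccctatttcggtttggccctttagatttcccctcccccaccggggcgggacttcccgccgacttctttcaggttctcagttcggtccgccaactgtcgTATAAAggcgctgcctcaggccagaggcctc
H4C16, chr12:14771132-14771281, minus strand: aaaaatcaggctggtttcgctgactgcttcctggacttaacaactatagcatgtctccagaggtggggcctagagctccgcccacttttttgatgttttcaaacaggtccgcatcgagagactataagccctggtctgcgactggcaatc

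H2BC8 shows all 3 motifs in the last 150 bases, H4C11 shows TATAAA alone, and the H4C16 window shows none of them.

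The 6 libraries held 20606494 to 26836727 estimated counts. Members took 0.433% to 0.495% of them. Library composition varied: the share of counts on genes of 7SL, an abundant small RNA used in protein secretion, was 4.53% to 6.13%. The 37 mitochondrial genes summed to between 3182 and 3819 CPM in LN-521 wells and between 4018 and 4375 CPM in LN-521+LN-221 wells, where CPM is a count divided by the scaled size of its library. The 8 pluripotency markers summed to 7795 to 7869 CPM in LN-521 wells and 7815 to 7946 CPM in the others. These near-equal sums hide differences in single markers, seen in edgeR's quasi-likelihood test with Benjamini-Hochberg adjustment. On LN-521+LN-221, 3 of them were lower: POU5F1 (log2 fold change -0.363), NANOG (-0.73) and TDGF1 (-0.646). Only 1 was higher, LIN28A (0.235). The share of the 8 markers called was above the 2.53% of all genes called. Markers of mesoderm (4 genes) summed to at most 1.17 CPM and of endoderm (4 genes) to at most 0.433 CPM. Of 4 neuroectoderm markers, with sums of 399 to 450 CPM, NES gave nearly all counts. Of 5 fibroblast markers, with sums of 334 to 401 CPM, COL1A1 and COL1A2 gave nearly all, and LUM was at 0.

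Of the 68 members 67 had at least 1 count. Levels are compared between genes as TPM, the authors' measure of transcript share corrected for transcript length, averaged over the 6 wells. By mean TPM, 39 members reached 100, 21 lay between 10 and 100, and 8 lay under 10. H4C11, which encodes histone H4, was highest at 760 TPM (719.82 to 866.24 over wells). It was followed by H4C5 at 522 TPM (494.19 to 537.07) and by the H2B gene H2BC5 at 517 TPM (511.63 to 534.03), whose ranges overlap. H4C4 had 492 TPM (450.68 to 522.76), and the H2A gene H2AC8 had 426 TPM (413.60 to 435.49).

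The linker histone genes were led by 2 members whose ranges overlap. H1-2 had 367 TPM (343.94 to 395.73) and H1-5 had 336 TPM (316.62 to 404.74), ahead of H1-3 at 252 and H1-4 at 197. H1-1 was far below, at 5.55 TPM (4.70 to 6.58). The first 3 made up 82.5% of H1 TPM. Expression was spread over more genes in the core families: the top 3 held 37.9% of H2A TPM (H2AC8, H2AC7, H2AC13), 38.0% of H2B (H2BC5, H2BC9, H2BC4), 56.0% of H3 (H3C2, H3C6, H3C11) and 53.1% of H4 (H4C11, H4C5, H4C4). Summed TPM was 1156 for H1, 2799 for H2A, 3241 for H2B, 1507 for H3 and 3340 for H4, or 9.60%, 23.2%, 26.9%, 12.5% and 27.7% of the members' total. As shares of the members' CPM, with no length correction, H1 had 15.1%, H2A 23.7%, H3 14.1% and H4 19.1%, and H2B had the remainder, so H4 led by TPM and H2B by CPM.

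At the low end, H2AC1 and H2BC1, an opposed pair known as testis histone genes, had 0 or 1 count in each library. H4C7 had no count in any library, which allows up to 0.113 to 0.144 CPM per library at a limit of 3 counts. These limits cover counting error only. The 3 genes were not tested between coatings, and the other 65 passed the filter on low counts. H2BC3 at 2.42 TPM, H3C3 at 3.44, H4C15 at 4.43 and H2BC26 at 4.96 were also under 10.

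TPM and CPM ordered some members differently. For H2AC8 and H2BC8 the longest GENCODE 29 transcripts have 509 and 1534 bases. Mean TPM was 426 for H2AC8 and 241 for H2BC8, while mean CPM, which has no length correction, was 115 and 136. H2AC6 and H2AC11, with transcripts of up to 1668 and 2250 bases, had the highest CPM of the H2A family (132 and 126) but 71.3 and 48.8 TPM. These lengths do not account for all members: H2BC9 has a transcript of 2060 bases, with 387 TPM and 99.0 CPM, and H4C5 one of 1487 bases, with 522 TPM and 89.3 CPM. The lengths used for TPM are thus unknown here, and the order of members by TPM rests on them. The annotation behind the authors' TPM is not given in the sources used here.

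**Figure D1:**
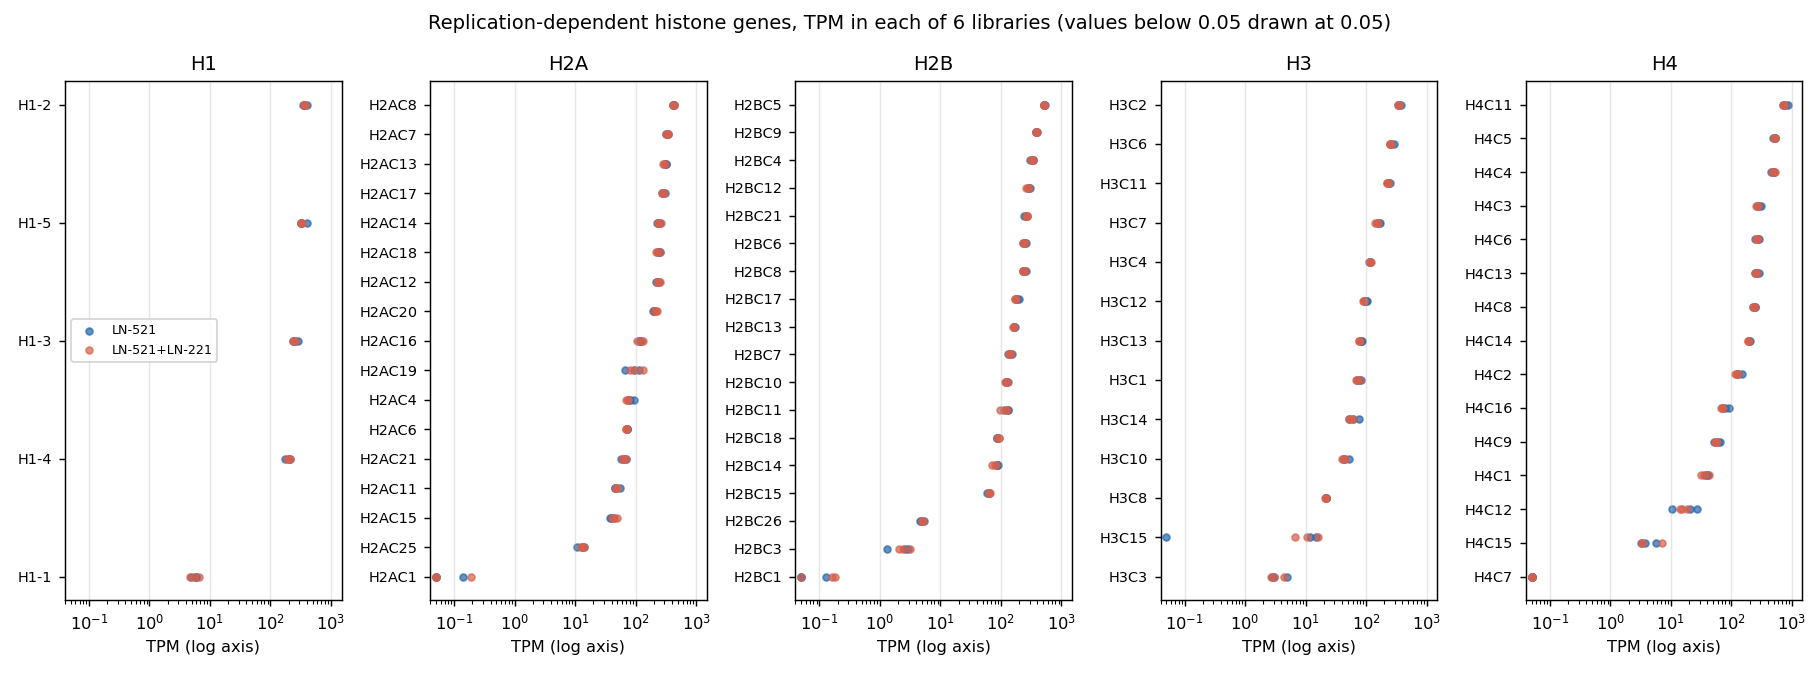
TPM of each member (log axis) in the 6 libraries, one panel per family with members ordered by mean TPM. Points of the 2 coatings lie close together for most genes, 39 members lie at 100 TPM or more on average, and H3C15 is at 0 in one LN-521 library.

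Opposed H2A and H2B genes formed 11 pairs, with 194 to 248 bases between their starts. In mean CPM, the H2A gene of a pair ranged from 0.211 times its H2B partner (H2AC15 and H2BC15) to 3.95 times (H2AC11 and H2BC11), values not corrected for length. H2BC15 has a transcript of 4137 bases that overlaps H2AC15 on the other strand.

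Near-identical copies are a limit on single genes. Estimated counts were not whole in at least 1 library for 31 members, where reads had been divided between genes, and whole in all 6 for 37, within a tolerance of 1e-06. In GENCODE 29, 14 members share at least 1 window of 150 bases with another gene of the table, and for 6 of them (H2AC18, H3C14, H3C15, H4C12, H4C14 and H4C15) every window is shared. Besides, 8 members overlap a gene on the other strand and 4 overlap another member on the same strand. The strand setting of the counting is not given in the sources used here.

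H3C14 and H3C15, copies that encode H3 on chromosome 1, show the division. H3C15 had 0, 24.3 and 28.3 CPM in the LN-521 wells and 18.1, 12.4 and 30.7 CPM in the LN-521+LN-221 wells. H3C14 had 128.5, 123 and 101 CPM against 95.2, 111 and 98.3 CPM. Where H3C15 was at 0, in LN-521 replicate 1, H3C14 was at its highest. Their sum was 128.5, 147.5 and 129.5 CPM on LN-521 and 113, 124 and 129 CPM on LN-521+LN-221, so the groups overlapped. H3C15 alone had a log2 fold change of 0.21 with a 95% interval of -2.93 to 3.35, and its single value carries little information. The H2A copies H2AC18 and H2AC19 behaved likewise. H2AC19 ranged from 33.8 to 65.4 CPM over the wells, while the sum with H2AC18 ranged from 151.5 to 175 CPM on LN-521 and from 144.5 to 170.4 CPM on LN-521+LN-221. H4C14 and H4C15 summed to 108.5 ± 7.03 and 102 ± 6.43 CPM (SD, n = 3).

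**Figure D2:**
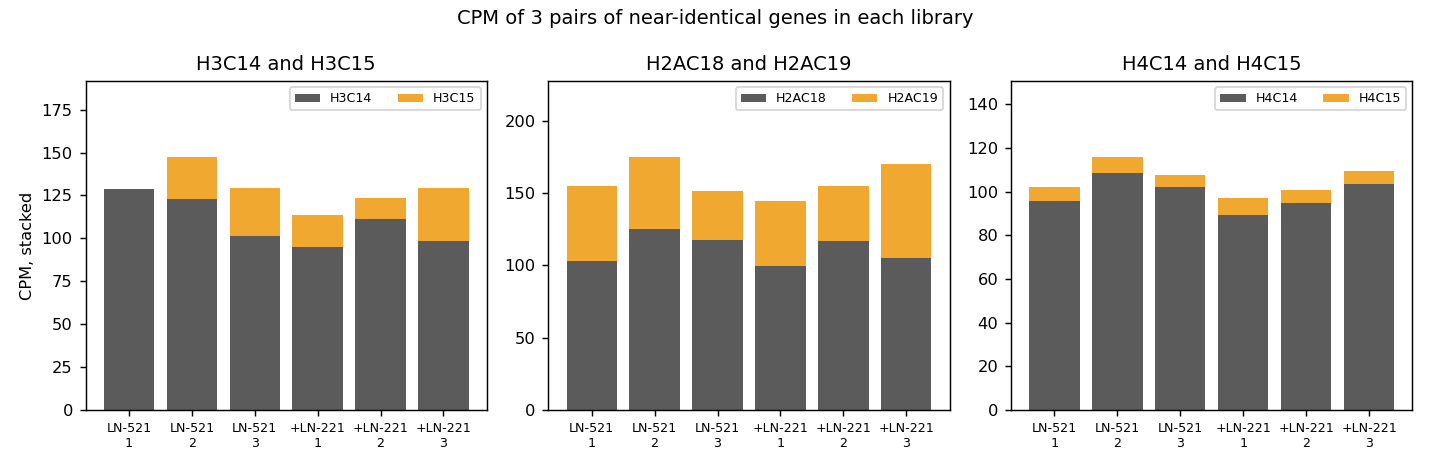
Stacked CPM of 3 pairs of near-identical genes in each library, with the coating and replicate on the horizontal axis. H3C15 is at 0 in LN-521 replicate 1, where H3C14 is at 128.5 CPM, and the sum of the pair stays between 113 and 147.5 CPM.

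The comparison of coatings asks whether adding laminin-221 went with another level of histone mRNA in cells still grown as stem cells. No member passed the test. Fold changes lay mostly just below 0, and the summed histone level of the LN-521+LN-221 wells overlapped that of the LN-521 wells. In edgeR's quasi-likelihood test with Benjamini-Hochberg adjustment over 17608 genes, 446 genes (2.53%) had an adjusted p under 0.05, 200 of them (1.14%) lower on LN-521+LN-221. None of the 65 members tested was among them. At an unadjusted p under 0.05 edgeR counted 10 members (15.4%), against 14.5% of all genes. All 10 were lower on LN-521+LN-221, against 7.49% of all genes lower and 7.05% higher, so the share in that direction was above the background and the share in either direction near it. The count of 10 moved with single libraries: it was 2 without LN-521+LN-221 replicate 1, 3 without its replicate 2 and 6 without LN-521 replicate 2. It was 19 without LN-521+LN-221 replicate 3 and 20 without LN-521 replicate 1. Calls over all genes (446) moved as well, to 290, 198, 635, 194 and 1179 in the same order. The share of all genes at an unadjusted p under 0.05 was not counted in these settings. The count of members was 3 with a correction for transcript length and 7 with one for GC content. It was 13 with library size alone, 14 with a replicate block and 18 without the filter on low counts. DESeq2 called 0 members, with 9 at an unadjusted p under 0.05, and limma on TPM called 0, with none at an unadjusted p under 0.05.

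Summed over all members, the level was 4605, 4992 and 4660 CPM in the LN-521 wells and 4296, 4483 and 4714 CPM in the LN-521+LN-221 wells. The highest LN-521+LN-221 well lay above 2 of the LN-521 wells, so the groups overlapped. Means were 4752 ± 209 and 4498 ± 209 CPM (SD, n = 3), a log2 ratio of -0.08. It was -0.04 without LN-521 replicate 2 and -0.05 without LN-521+LN-221 replicate 1, and reached -0.12 without LN-521+LN-221 replicate 3. Summed TPM was 12156 ± 438 and 11930 ± 32.9 (SD, n = 3), a log2 ratio of -0.03. The 7SL genes summed to 337744 ± 36065 and 319965 ± 8680 TPM (SD, n = 3), and their part in this ratio was not tested.

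In CPM every family had a lower mean sum on LN-521+LN-221, and in no family were the wells of the coatings separate on that scale. H1 genes summed to 721 ± 20.6 and 681 ± 25.9 CPM (SD, n = 3), a log2 ratio of -0.08. H2A genes summed to 1115 ± 48.4 and 1078 ± 43.6 CPM (-0.05), and H2B genes to 1318 ± 67.9 and 1268 ± 62.3 CPM (-0.06). H3 genes summed to 680 ± 59.0 and 622 ± 34.0 CPM (-0.13), and H4 genes to 917 ± 38.7 and 850 ± 45.3 CPM (-0.11). All 5 ratios stayed below 0 with any 1 library left out, but several moved by over 1.5 times. Without LN-521 replicate 2 the ratios were -0.01 for H2A, -0.02 for H2B and -0.06 for H3, and without LN-521+LN-221 replicate 1 they were -0.05 for H1, -0.02 for H2A, -0.03 for H2B and -0.07 for H4. Without LN-521+LN-221 replicate 3 they were -0.08 for H2A and -0.10 for H2B, and without LN-521 replicate 1 the H2B ratio was -0.09. On the TPM scale all 5 ratios moved by over 1.5 times, to -0.04 for H1, 0.01 for H2A, -0.02 for H2B, -0.07 for H3 and -0.04 for H4.

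**Figure D3:**
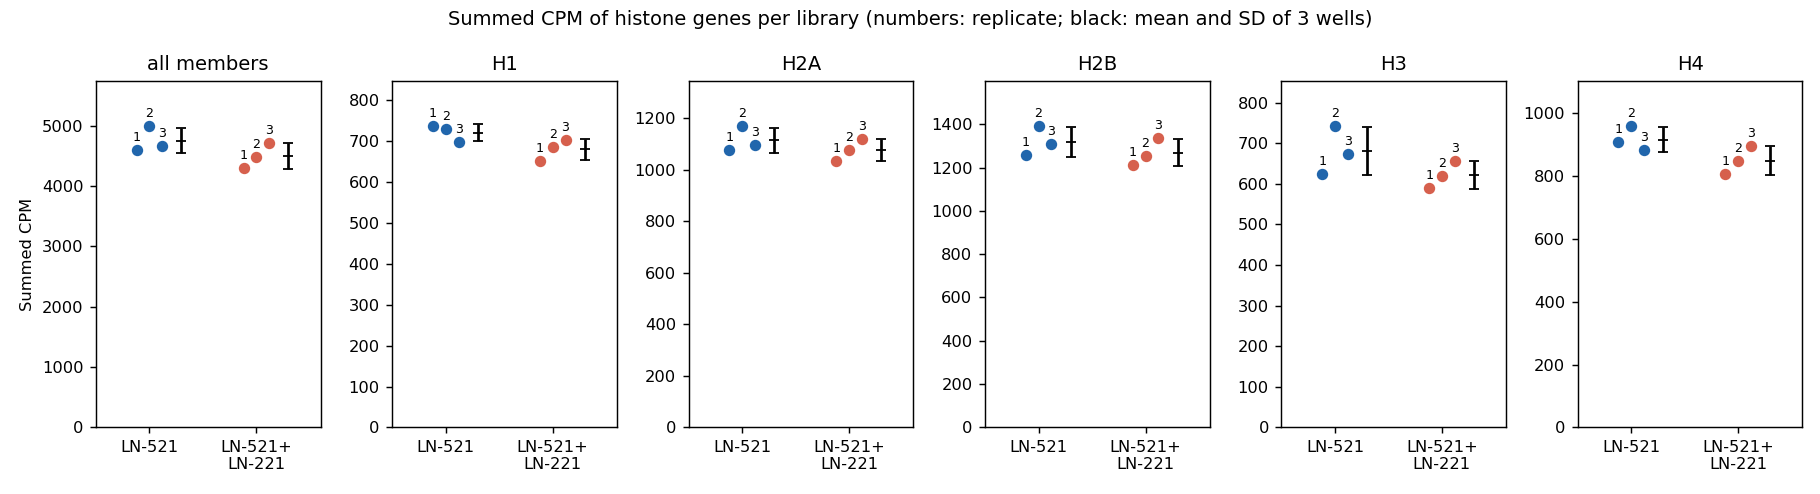
Summed CPM of all members and of each family in every library, with replicate numbers beside the points and the mean and SD of 3 wells in black, all axes from 0. For all members the LN-521 wells lie between 4605 and 4992 CPM and the LN-521+LN-221 wells between 4296 and 4714, and the coatings overlap in every panel.

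By position, the group of 16 members at chr6:27807479-27893891 summed to 1130, 1187 and 1111 CPM on LN-521 and 1006, 1045 and 1107 CPM on LN-521+LN-221. Its coatings did not overlap, by a margin that is small beside the spread within each coating (log2 ratio -0.12). In summed TPM the coatings overlapped: the LN-521 wells had 3513, 3228 and 3176, against 3198, 3163 and 3141 for the mixed coating. The 33 members of the largest cluster summed to 2411 ± 102 and 2291 ± 97.6 CPM (SD, n = 3), and the 11 on chromosome 1 to 747 ± 50.2 and 731 ± 32.7 CPM. Both of these overlapped.

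Over single genes, 55 of 65 members (84.6%) had a log2 fold change below 0, against 50.3% of all genes tested. The median was -0.09, against -0.001 for all genes, and values ran from -0.38 to 0.21. Medians were -0.03 for H1, -0.03 for H2A, -0.07 for H2B, -0.14 for H3 and -0.11 for H4, with 5 of 5, 12 of 16, 13 of 17, 12 of 13 and 13 of 14 below 0. The members come from the same 6 libraries, and single libraries weigh on these figures. LN-521 replicate 2 was the highest LN-521 well for 46 of 65 members, and LN-521+LN-221 replicate 1 was the lowest of its coating for 50, with replicate 3 the highest for 47. Without LN-521 replicate 2, 46 members were below 0 and the median was -0.03, and without LN-521+LN-221 replicate 1, 48 were below 0 and the median was -0.05. Without LN-521+LN-221 replicate 3, 60 were below 0 with a median of -0.12, and without LN-521 replicate 1, 58 with a median of -0.11. LN-521 replicate 2 and LN-521+LN-221 replicate 1 also had the highest and lowest 7SL share, 6.13% and 4.53% of counts, and the part of library composition in the histone values was not tested. On log2(TPM + 1) with limma, 39 members were below 0, with a median of -0.03 against 0.04 for all genes.

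Intervals show what these wells could resolve. H2AC6, for example, had a log2 fold change of -0.08 with a 95% interval of -0.21 to 0.05, and H1-2 had -0.03 with an interval of -0.15 to 0.09. Apart from H3C15 and H2AC19, the 57 members at 10 CPM or more had intervals that stayed between -0.44 and 0.33.

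**Figure D4:**
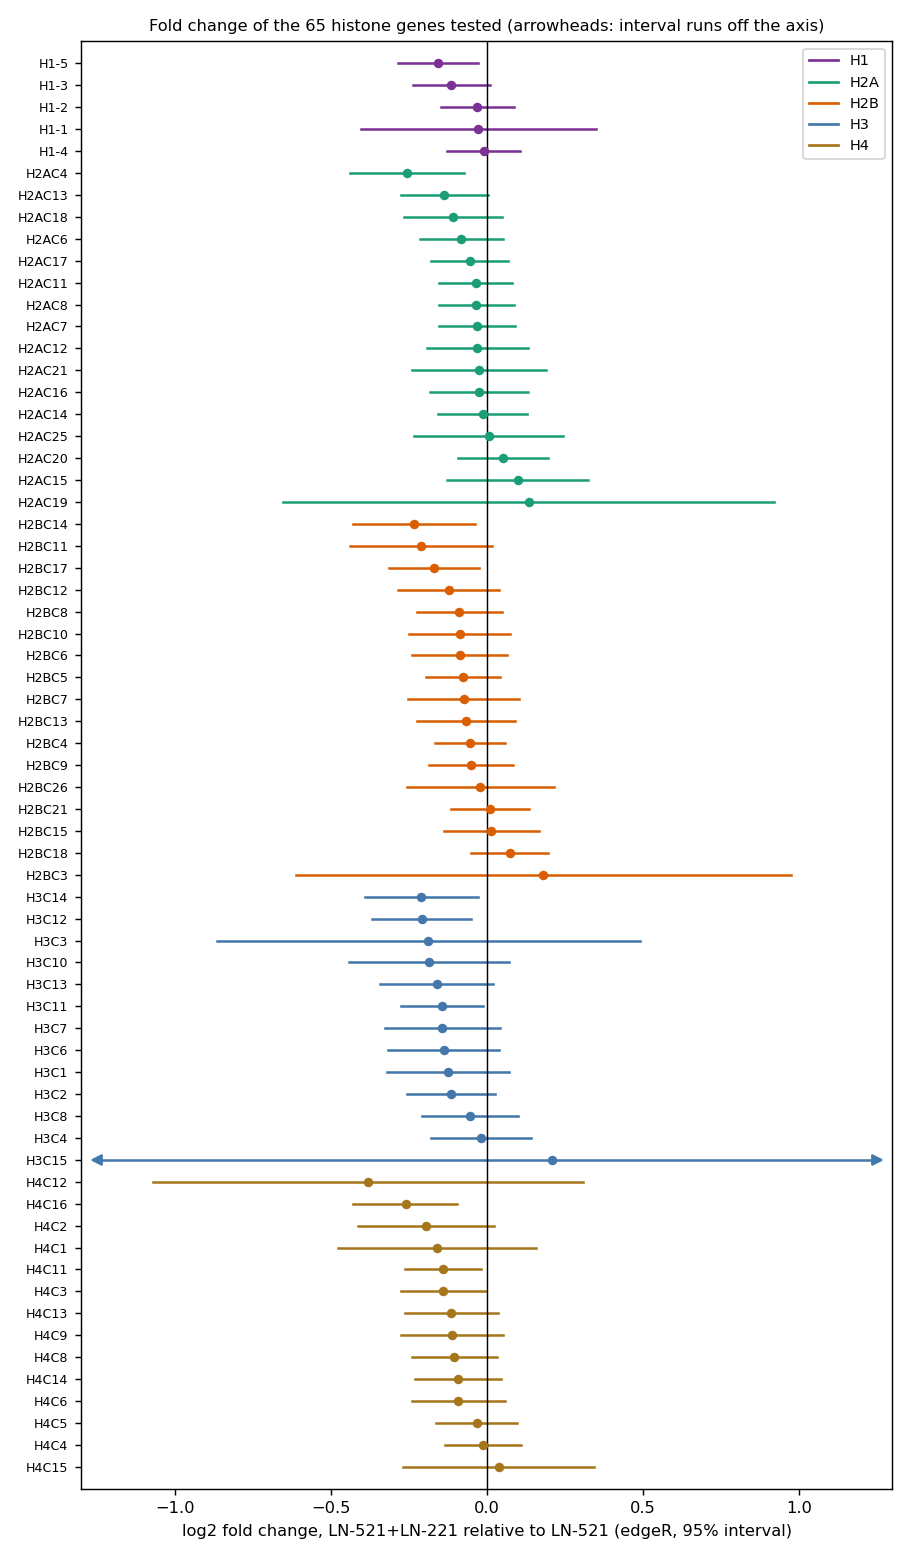
Log2 fold change of each tested member on LN-521+LN-221 compared with LN-521 alone, with its 95% interval from edgeR, coloured by family. Of the 65 values 55 lie below 0, and the interval of H3C15, from -2.93 to 3.35, runs off both sides of the axis.

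The smallest p-values belonged to members of several families, named here after their values were seen. H4C16, the H4 gene on chromosome 12, had 44.0, 44.7 and 38.6 CPM on LN-521 and 33.3, 34.5 and 38.4 CPM on LN-521+LN-221. All LN-521+LN-221 wells were below all LN-521 wells, though the nearest pair differed by little. Its log2 fold change was -0.26 ± 0.08 (SE), with an unadjusted p of 0.00417 and an adjusted p of 0.101 in edgeR's quasi-likelihood test. The adjusted p was 0.0252 after a correction for transcript GC content and 0.0299 without the filter on low counts. It was 0.0390 with GC correction and the replicate block. Over the alternatives that kept all libraries it ranged from 0.0252 to 0.722, the latter with limma on log2(TPM + 0.1).

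H2AC4, an H2A gene of the largest cluster, had 24.4, 22.4 and 22.3 CPM on LN-521 and 17.7, 19.4 and 20.7 CPM on LN-521+LN-221. The wells did not overlap, and the log2 fold change was -0.26 ± 0.09 (SE; edgeR adjusted p = 0.156). The H3 gene H3C12 had 29.4, 31.7 and 29.7 CPM against 25.3, 25.6 and 27.7 CPM, also without overlap (-0.21 ± 0.08, edgeR adjusted p = 0.191). Reads of H3C12 may be shared with H2AC17, which it overlaps on the same strand.

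The linker histone gene H1-5 had 238, 217.5 and 213 CPM on LN-521 and 188, 199 and 214 CPM on LN-521+LN-221. Here the highest LN-521+LN-221 well passed the lowest LN-521 well, and the log2 fold change was -0.16 ± 0.06 (SE; edgeR adjusted p = 0.231). The H4 gene H4C11 had 204, 201 and 183.5 CPM against 169, 181 and 183 CPM. These wells did not overlap, but its highest LN-521+LN-221 and lowest LN-521 values were almost equal (log2 fold change -0.14 ± 0.06, edgeR adjusted p = 0.254). Summed with its copy H4C12, the values were 205.5, 205.6 and 187 CPM against 172, 184 and 185 CPM.

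In all, CPM of the coatings did not overlap for 7 members (10.8%), all lower on LN-521+LN-221: H2AC4, H2BC17, H3C11, H3C12, H4C8, H4C11 and H4C16. Among all genes tested 19.9% did not overlap, 9.68% lower and 10.2% higher, so the members' share lower was near that of all genes lower. The 10 members at an unadjusted p under 0.05 were also all lower. Besides those described they were H2BC14, H2BC17, H3C11, H3C14 and H4C3, with log2 fold changes from -0.23 to -0.14.

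The members with the highest CPM in each family did not pass the test either. The H2B genes H2BC5 and H2BC4 had log2 fold changes of -0.08 ± 0.06 and -0.05 ± 0.05 (SE), and H2BC18 had 0.07 ± 0.06. H2AC13 had -0.14 ± 0.07 and H2AC11 had -0.04 ± 0.06, the latter turning to 0.01 with TPM. H3C2 had -0.11 ± 0.07 and H3C6 had -0.14 ± 0.08. H4C14 had -0.09 ± 0.07 and H4C3 had -0.14 ± 0.06. With 1 library left out, values ran from -0.19 to -0.07 for H3C2 and from -0.20 to -0.02 for H3C6 (the latter without LN-521 replicate 2). They ran from 0.03 to 0.13 for H2BC18, from -0.15 to -0.04 for H4C14 and from -0.08 to -0.02 for H2BC4. For H2BC5 they ran from -0.11 to -0.04, and for H2AC13 from -0.195 to -0.08. H1-3 had -0.11 ± 0.06 (-0.16 to -0.07 with 1 library left out), and H1-2 turned from -0.03 to 0.02 with TPM. Of other members high by TPM, H4C5 had -0.03 ± 0.06, H4C4 had -0.01 ± 0.06, H2BC9 had -0.05 ± 0.06 and H2AC7 had -0.03 ± 0.06. Among the opposed pairs, H2AC8 had -0.03 ± 0.06 and its partner H2BC8 -0.09 ± 0.06.

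No gene for making and processing histone mRNA passed the test. Of 25 such genes 24 were tested and edgeR called 0, with 1 higher (4.17%, against 7.05% of all genes higher) and 0 lower at an unadjusted p under 0.05, and their median log2 fold change was 0.02. DESeq2 and limma called 0 as well, with 1 and 0 at an unadjusted p under 0.05. CASP8AP2, a component of the histone locus bodies, was the one: it had 95.3, 80.1 and 89.9 CPM on LN-521 and 96.1, 103 and 98.5 CPM on LN-521+LN-221. Its wells did not overlap, by a narrow margin (log2 fold change 0.17 ± 0.07, edgeR adjusted p = 0.242, and 0.0262 without LN-521 replicate 1). SLBP had 35.5, 32.7 and 33.4 CPM against 36.6, 37.2 and 35.1 CPM, with overlap (0.10 ± 0.07, edgeR adjusted p = 0.567). NPAT, the transcriptional activator, had 0.06 ± 0.09, and HINFP, a factor for H4 promoters, had 0.05 ± 0.09. CCNE2, a cyclin that activates CDK2 at the start of S phase, was low at 0.845 TPM and had -0.20 ± 0.22. RNU7-1, the U7 RNA gene, had no count in any library. Whether these libraries capture so small an RNA was not tested, so this does not show that it was absent.

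Histones made outside S phase were measured beside the members. Of 11 such genes 10 were tested and edgeR called 0, with 0 higher and 3 lower (30.0%) at an unadjusted p under 0.05, and a median of -0.08. The share lower was above the 7.49% of all genes. DESeq2 called 0, with 2 at an unadjusted p under 0.05, and limma on log2(TPM + 1) called 0, with 1. H3-3A and H3-3B, which both encode the replacement histone H3.3, were the most abundant by TPM at 421 and 270.3. Their log2 fold changes were 0.01 ± 0.06 and 0.08 ± 0.05, and that of H3-3A fell on either side of 0 with the scaling. H2AZ1, which encodes H2A.Z, had 216 TPM and a log2 fold change of -0.06 ± 0.06. H2AX, the histone phosphorylated at DNA breaks, had 51.5, 59.1 and 56.7 CPM against 47.5, 47.9 and 54.5 CPM, with overlap (-0.16 ± 0.07, edgeR adjusted p = 0.331). H2AJ, named after its values were seen, had 14.4, 17.7 and 14.1 CPM against 11.5, 12.4 and 11.4 CPM. Its wells did not overlap, and it had the lowest value of the list (-0.39 ± 0.11, edgeR adjusted p = 0.0620).

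Chaperone and cell cycle genes gave no call in edgeR's test. Of 21 histone chaperone genes 0 were called, none at an unadjusted p under 0.05, with a median log2 fold change of -0.03. Of 27 S-phase genes 0 were called, with 0 higher and 1 lower (3.70%, against 7.49% of all genes lower) at an unadjusted p under 0.05 and a median of -0.02. PCNA, the sliding clamp of DNA polymerases, had 125, 105 and 113 CPM against 107, 117 and 111 CPM, with overlap (-0.03 ± 0.07, and 0.01 with TPM). Of 17 mitosis genes 0 were called, with 0 higher and 4 lower (23.5%) at an unadjusted p under 0.05 and a median of -0.06. This share was above the 7.49% of all genes that were lower. DESeq2 called 0 in these 3 lists, with 0, 1 and 4 at an unadjusted p under 0.05, and limma on log2(TPM + 1) called 0, with 0, 1 and 0.

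**Figure D5:**
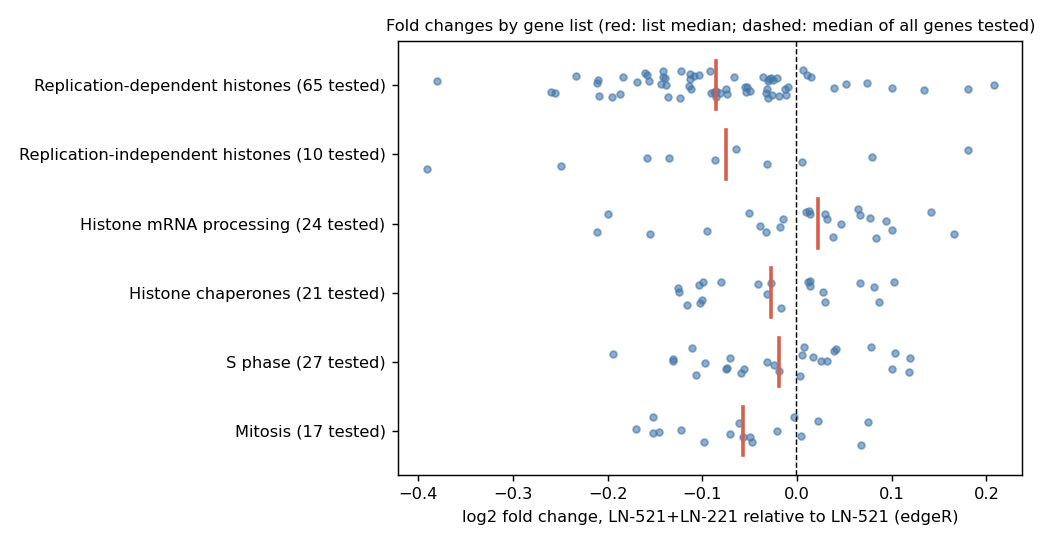
Log2 fold change of each tested gene by list, with the list's median in red and the median of all genes tested as a dashed line. Medians run from -0.09 for the replication-dependent histones to 0.02 for the processing genes, and every point shown missed the adjusted threshold of 0.05.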

How the data were processed

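The 6 total RNA libraries, 3 wells per coating, were analysed as labelled. Estimated counts and TPM per gene were deposited by the authors: per the submitters' processing notes cutadapt, STAR 2.5.2b, RSEM 1.2.31 and hg38 were used, with roles, annotation and strand setting not given in the sources used here. Members and gene lists were chosen with earlier results of these data known. Of 68 members, 64 matched by current Ensembl ID and 4 by a retired one.

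Estimated counts were rounded. Genes were kept by filterByExpr (minimum count 10), scaled by TMM and tested with edgeR 4.0.16 (R 4.3.3, robust quasi-likelihood test, no replicate block), with Benjamini-Hochberg adjustment over 17608 genes and a threshold of 0.05. Adjusted p-values and SE are from it. CPM uses TMM-scaled library sizes.

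Named genes were, by rule, called members (none), the 3 members per family with the highest mean CPM, called list genes and 10 fixed genes. One gene of a list is not reported here. Others were chosen after their values were seen. Alternatives were DESeq2 1.42.0, limma 3.58.1 on log2(TPM + 0.1) and log2(TPM + 1), other scaling, filters and thresholds, each library left out and a replicate block. GC content and transcript length corrections, and sums over members with whole counts, were added after seeing the data. Replicate numbers recur in both coatings. Same-numbered wells had correlations of 0.0473, -0.0223 and 0.00902 between their deviations, so no pairing by number was seen in these values. Whether same-numbered wells were handled together is not known here.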

Additional observations from a re-analysis of the deposited data

How the results depend on the processing

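The count of all genes called (446) was 911 with GC correction, 963 with GC correction and block, 718 with no filter, 221 at a threshold of 0.01, 725 at 0.1, and 16 and 33 with limma on TPM plus 0.1 and plus 1. It ranged from 194 to 1179 with a library left out. The count of members called (0) was 1 with GC correction, alone or with the block (H4C16), 2 with no filter (H3C14, H4C16), and 0 to 2 with a library left out. The 2 members, without LN-521 replicate 1, were H3C2 (edgeR adjusted p = 0.0331) and H4C12 (0.0345). The members' median stayed below 0 in each setting run, from -0.12 to -0.03 with a library left out, -0.07 with GC correction and -0.04 with length correction, where 44 of 65 members were below 0 in both. With TPM sums, the ratios were -0.038 for H1, 0.012 for H2A, -0.023 for H2B, -0.072 for H3 and -0.039 for H4. Over members with whole counts the sum had a log2 ratio of -0.09.

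With the replicate block, 646 genes and 0 members were called, and it changed no call of a member. Whether same-numbered wells share more than the number is not known here. Fold changes of some genes near 0 turned. H1-2 was 0.008 with GC correction, alone or with the block, 0.015 with length correction and 0.017 with either TPM setting. H3-3A was -0.027 with GC correction, -0.028 with GC correction and block, -0.002 with library size alone and -0.005 with no filter. H2AC11 was 0.006 and 0.005, and PCNA 0.013 and 0.013, with TPM plus 0.1 and plus 1. With a library left out, values ran from -0.07 to 0.001 for H2AC11, -0.059 to 0.013 for H1-2, -0.045 to 0.162 for HINFP, -0.029 to 0.129 for NPAT, -0.088 to 0.035 for PCNA and -0.039 to 0.057 for H3-3A. The cause of these differences was not tested. H3C14 (-0.22, no filter), CASP8AP2 (0.223) and H3C2 (-0.191, both without LN-521 replicate 1) passed the threshold.

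The small number of wells (3 per coating), the single cell line and the shared sequence of short genes limit these results. Single values of copied genes depend on how reads were divided.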
